A study of Danio rerio with 12 samples.

Results

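Zebrafish embryos labelled as injected with the mispair control oligonucleotide (MP) were compared between 24 and 36 hours post-fertilization (hpf). The aim was to describe how transcript levels changed in control embryos over these 12 hours of development. The comparison used every array labelled MP, 3 at 24 hpf and 3 at 36 hpf, which is 6 of the 12 arrays of the series, and covered 10302 named genes. The other 6 arrays held embryos injected with a morpholino oligonucleotide (MO) directed against translation of the glucocorticoid receptor (GR), at the same 24 and 36 hpf. Each array held RNA from a pool of 25 whole embryos, given 4.4 ng of oligonucleotide in 1 nL at the single-cell stage, and the 3 replicates of a group came from separate breeding events on separate days. By the labels all 6 MP pools carried the control oligonucleotide, and embryos without an injection were not analysed here. The active oligonucleotide is shown because the control is defined against it, with the complement of the start codon in capitals.
MO: ctccagtcctccttgatcCATtttg
The sample labels print these same 25 bases for the control, although they describe it as changed at 5 positions. The methods of the study print a different sequence for it, so the sequence of MP is not settled here.

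In this window the zebrafish embryo passes from the end of segmentation to the middle of the pharyngula period. The last somites have formed, myotomes begin to contract with force, primitive red blood cells circulate, the lens builds its fibres, and neurons of the retina, brain and spinal cord leave the cell cycle and form connections. Pigment cells spread over the trunk, cartilage precursors gather in the pharyngeal arches, and the embryo still lives on its yolk. Because whole embryos were homogenized, a lower level of a gene may mean fewer cells of a type or less RNA per cell, and these cannot be told apart.

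The arrays are one-colour arrays, on which the brightness of a probe measures the abundance of its transcript. Levels are given as log2 intensity after scaling every array to its own median of the 19229 probes that exceeded 50 on all 12 arrays, so 0 is that median, and levels of different genes are not comparable because their probes differ. Median raw intensities were 132.2 to 170.5 at 24 hpf and 83.9 to 170.6 at 36 hpf, and 80.4% to 82.3% and 72.8% to 80.4% of probes were well above background. An exact permutation test, two-sided, gave p = 0.9 and 0.2, but 3 arrays against 3 cannot go below 0.1, so this test could not call a difference. Correlations between arrays were 0.9933 to 0.9982 within 24 hpf, 0.9776 to 0.9872 within 36 hpf and 0.9601 to 0.9729 between the times. All 24 hpf arrays were scanned on 1 day and all 36 hpf arrays on another, so time and scan day cannot be told apart.

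An array that stood apart bears on some results. On replicate 1 at 36 hpf, 86 genes were at least 4-fold above both other 36 hpf arrays, against 3 and 4 genes on those arrays and none on the 24 hpf arrays. They included genes of the egg coat and of the oocyte, whose transcripts are laid down by the mother. The egg-coat gene zp3 had log2 levels of 0.75, 0.63 and 0.92 at 24 hpf and of 5.45, -0.19 and -1.10 at 36 hpf. The oocyte linker histone h1m had -2.64, -2.12 and -2.11 against 3.57, -2.10 and -3.24, and the pluripotency factor nanog had -3.01, -3.37 and -2.97 against 0.58, -4.10 and -4.06. In each of these genes the high value was that of replicate 1, and the other arrays at 36 hpf were near or below those at 24 hpf. The maternal factor zar1 (0.19 on replicate 1 against -4.07 and -4.01) and the importin kpna7 (2.41 against -3.96 and -5.94) did the same. Where these transcripts came from was not tested. None of the 86 genes was called as changed over all 6 arrays by limma (3 were at an unadjusted p under 0.05), and without this array 42 of them were called as fallen and 1 as risen. These genes were picked from the data, so the counts describe the array and test nothing. Without it 3123 genes were called in the whole comparison, 2686 of them among the 3153 called with it.

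From 24 to 36 hpf, 3153 of 10302 genes (30.6%) changed at an adjusted p under 0.05 (limma with Benjamini-Hochberg adjustment, n = 3 arrays per time). Of these, 1478 rose (14.3% of genes tested) and 1675 fell (16.3%), and the median change over all genes was -0.06 on the log2 scale. Their median log2 changes were 0.91 and -0.75. By the fitted change, 38 genes rose by more than 10-fold and 59 by 5-fold to 10-fold, whereas 2 fell by more than 10-fold and 30 by 5-fold to 10-fold. In 8, 2, 1 and 3 of these genes no array of the lower time was well above background, so their folds are known as bounds alone. The 3 values at 24 hpf lay entirely above or below the 3 at 36 hpf in 4991 genes (48.4%). Among the genes tested, 13 were not well above background on any 24 hpf array but were on all 36 hpf arrays (13 of them called), and 53 showed the reverse (37 called). These genes passed the filter only through the time at which they were bright, so their calls test nothing. The share of probes well above background was 72.8% to 80.4% at 36 hpf and 80.4% to 82.3% at 24 hpf. Its part in the 2 counts was not tested. The number called depended on single arrays, being 1787 without replicate 1 and 1788 without replicate 3 of 24 hpf. Genes named below as changed were also called with each array left out in turn, unless said otherwise. Counts of called genes in a list are to be read beside these shares of all genes, 14.3% risen and 16.3% fallen. Many genes were named as the largest rises and falls of a list, so opposite directions among them follow from that choice. Scaled to the positive control spots, whose median intensity was 7.57 to 12.8 on the MP arrays, the median change was 0.17, and 496 genes rose while 116 fell. Under that scaling 21 crystallins, 10 fast muscle genes and 11 neuronal genes rose, and 10 erythroid and 8 segmentation genes fell.

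**Figure D1:**
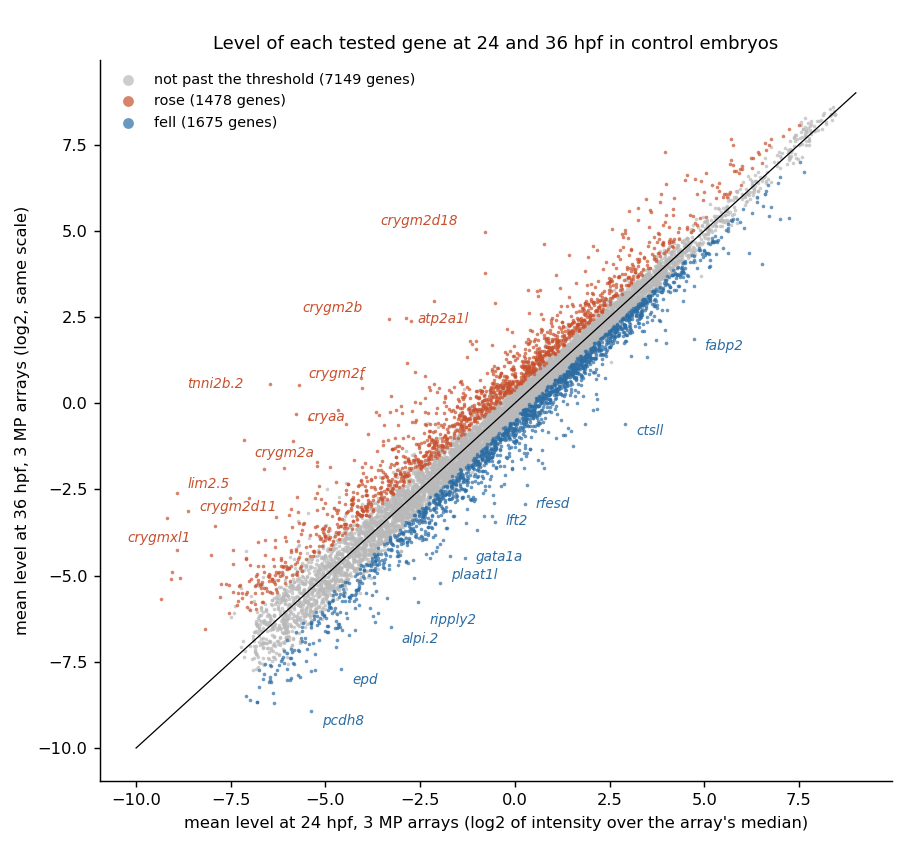
Mean log2 level of each of 10302 genes at 24 hpf (x axis) and at 36 hpf (y axis) in MP embryos, n = 3 arrays per time; coloured points are the 1478 genes that rose and the 1675 that fell, and the 10 largest of each are named. Positions of genes not above background at 1 of the times are nominal.

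The largest fitted rise was that of tnni2b.2, which encodes a fast skeletal muscle troponin I. Its log2 levels were -6.60, -6.82 and -5.95 at 24 hpf and 0.92, 0.73 and -0.02 at 36 hpf, a 128-fold rise (log2 change 7.0, SE 0.31, adjusted p = 9.15e-06). Of the 10 largest fitted rises, 8 were genes of the lens, namely cryaa, 6 gamma M crystallins and the lens fibre membrane gene lim2.5. The remaining one was atp2a1l, a calcium pump of the sarcoplasmic reticulum. Among genes above background at both times, the largest fall was that of the cathepsin L gene ctsll, 11.5-fold from 2.91, 2.63 and 3.2 to -0.25, -1.27 and -0.31 (log2 change -3.52, SE 0.27, adjusted p = 8.78e-05). pcdh8, a protocadherin of the paraxial mesoderm, had -5.30, -5.47 and -5.37 at 24 hpf and no value well above background at 36 hpf, so that its fall was at least 2.69-fold. It passed the filter only through 24 hpf, so its call tests nothing. Other large falls came from the segmentation gene ripply2, the erythroid factor gata1a, the Nodal inhibitor lft2, the intestinal fatty acid binding protein fabp2, the intestinal alkaline phosphatase alpi.2 (9.27-fold), plaat1l (9.44-fold) and rfesd (9.14-fold). The ependymin gene epd fell as well, to levels well above background on 1 of 3 arrays, and at 36 hpf ripply2 and alpi.2 were above it on 2 of 3. The 10 falls thus came from several tissues, and none of them was a crystallin or a sarcomere gene.

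**Figure D2:**
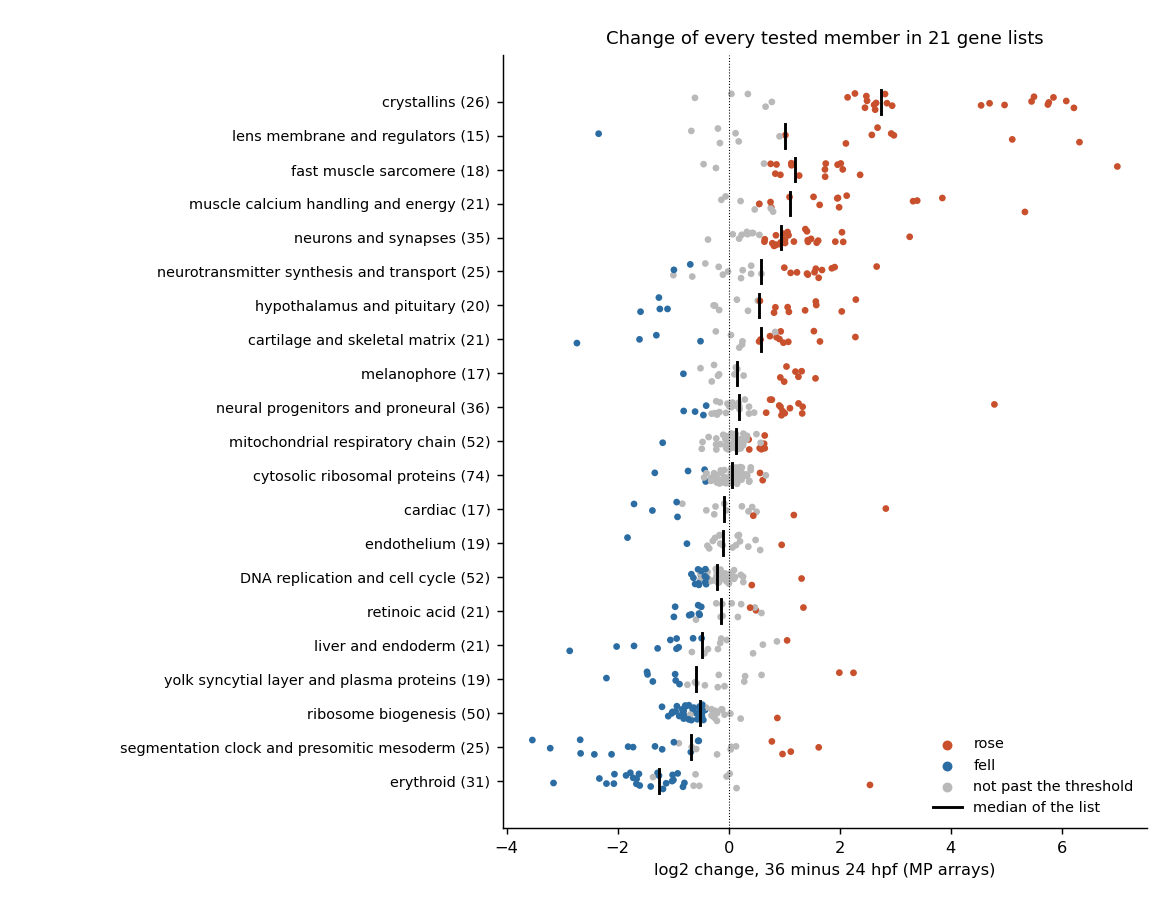
Log2 change from 24 to 36 hpf (x axis) of the tested members of 21 gene lists (rows) in MP embryos; each point is a gene, coloured by its call, and the black bar is the list median. Crystallins lie farthest to the right with a median of 2.74, and erythroid genes farthest to the left with a median of -1.25.

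Lens genes made up the group with the largest rises. The vertebrate lens is filled with crystallins, soluble proteins that make it transparent, and its elongating fibre cells take up water channels and gap junctions in their membranes. Of 26 crystallin genes tested, 21 rose and the other 5 were not called, and the median log2 change was 2.74 against -0.06 over all genes. Of the 22 whose probes were above background on all arrays, 17 rose. The alpha crystallin gene cryaa, which encodes a small heat shock protein of the lens, had levels of -5.95, -6.28 and -5.09 at 24 hpf and of -0.13, 0.19 and -1.02 at 36 hpf (43.9-fold, log2 change 5.46, SE 0.38, adjusted p = 5.32e-05). crybb1, a beta crystallin, already stood at 1.67, 1.09 and 1.54 at 24 hpf and rose 7.21-fold to 4.61, 4.32 and 3.91. Its arrays at the 2 times lay more than 2 log2 units apart. Gamma M crystallins, the gamma crystallins of fish lenses, rose the most. crygm2f went from -5.75, -5.84 and -5.51 to 0.73, 0.69 and 0.13 (74.4-fold, log2 change 6.22, SE 0.21, adjusted p = 2.84e-06). crygm2d18 went from -0.81, -1.01 and -0.57 to 4.98, 5.57 and 4.36 (54.4-fold), and crygm2b from -3.24, -3.52 and -3.20 to 2.51, 2.84 and 1.93 (53.8-fold). In all of these genes the times were separated by several log2 units while the arrays of a time lay closer together. For cryaa, crygm2f, crygm2d18 and crygm2b this follows from the rule that named them, the largest rises without overlap. crygm2a rose 67.6-fold, with 2 of the 24 hpf arrays well above background, and crygm3 rose 26-fold. crygm2d11 and crygmxl1 were not well above background on any 24 hpf array, and their rises were at least 20.8-fold and at least 17.8-fold. The gamma M genes have near-identical copies, and how far a probe of one also binds transcripts of another was not tested.

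Of 15 other lens genes, 8 rose and 1 fell. The aquaporins of lens fibres differed in size of change. mipb rose from -2.29, -2.51 and -1.64 to 3.22, 3.05 and 2.61 (34.5-fold, log2 change 5.11, SE 0.24, adjusted p = 9.38e-06), and mipa from -1.09, -1.15 and -0.82 to 1.66, 1.59 and 1.42 (5.97-fold). lim2.5, a membrane protein of lens fibres, was not well above background at 24 hpf and stood at -2.87, -1.67 and -3.29 at 36 hpf, a rise of at least 29.6-fold. The member that fell was mafbb, a basic leucine zipper factor, from -0.75, -0.11 and -0.77 to -3.10, -3.24 and -2.30 (5.07-fold). foxe3, a forkhead factor of the lens epithelium, stood at -2.35, -1.53 and -2.21 and then at -2.68, -2.63 and -2.79 and did not pass the test (adjusted p = 0.0575). The water channels and mafbb thus changed in opposite directions, but mipb and mafbb were named as the largest rises and falls of the list.

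**Figure D3:**
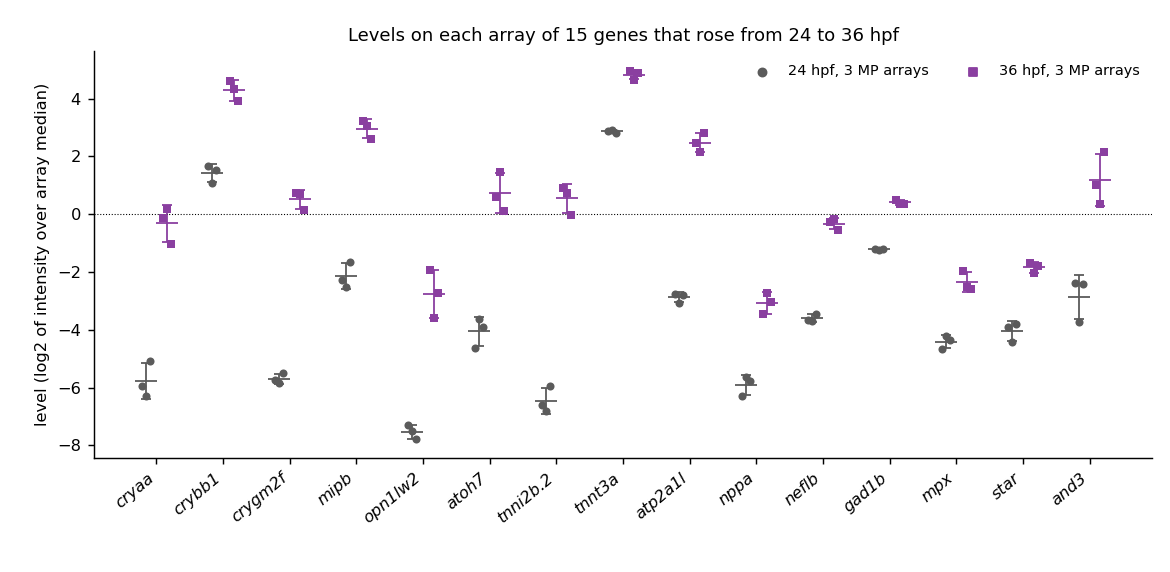
Log2 level on each MP array at 24 and 36 hpf (y axis) for 15 genes of lens, retina, muscle, heart, nervous system, myeloid cells, steroidogenesis and fin fold; dots are arrays, and the bar and error bar are the mean and SD of 3 arrays. The 15 genes were picked as risen, and the times do not overlap in any of them, as in 48.4% of all genes tested.

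In the neural retina atoh7 rose. It encodes the proneural factor required for retinal ganglion cells, the first neurons of the retina. Its levels were -4.62, -3.64 and -3.91 at 24 hpf and 0.59, 1.47 and 0.12 at 36 hpf (27.6-fold, log2 change 4.79, SE 0.36, adjusted p = 8.09e-05). Among 14 retinal transcription factors 5 rose and 2 fell, and the 2 that fell were the eye field factors rx1 (from 1.69, 1.88 and 1.68 to 1.28, 1.34 and 1.14, its other probe not called) and rx3 (from 0.22, 0.10 and 0.26 to -0.23, -0.30 and -0.80). Both of these small falls were lost without replicate 1 or without replicate 3 of 24 hpf (adjusted p 0.0546 and 0.0512 for rx1, 0.0837 and 0.0905 for rx3), and 2 and 1 of the 14 factors rose without replicate 1 and without replicate 3 of 24 hpf. Of 19 phototransduction genes 5 rose and 2 fell (36.8% called, beside 30.6% of all genes), cone genes being among both. opn1lw2, a red cone opsin, had -7.30, -7.49 and -7.78 against -1.94, -3.59 and -2.74 (27.3-fold, adjusted p = 0.000119), with 1 of the 24 hpf arrays well above background. arr3a, a cone arrestin, rose from -5.05, -5.56 and -5.04 to -1.17, -2.78 and -1.15 (11.5-fold). In both genes replicate 2 at 36 hpf was the lowest of its group. The cone phosphodiesterase subunit pde6c fell from -2.13, -1.81 and -2.07 to -3.02, -2.96 and -2.77 (1.88-fold). The green cone opsin opn1mw2 also fell, from -5.57, -5.54 and -5.51 to -7.26, -7.14 and -5.99 (adjusted p = 0.0308), with 1 of the 36 hpf arrays well above background. Its call was lost without any one of the 24 hpf arrays or replicate 1 or 2 of 36 hpf (adjusted p 0.0658 to 0.0934). crx, a photoreceptor homeobox factor, stood at -2.58, -2.73 and -2.62 and then at -2.18, -0.86 and -2.23 (adjusted p = 0.0805).

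Most genes tested of the contractile apparatus of fast muscle rose. In zebrafish, slow fibres come to lie at the surface of the myotome and fast fibres fill its depth. Of 18 fast muscle genes tested, 15 rose and the other 3 were not called (median log2 change 1.2). tnnt3a, a fast troponin T, went from 2.88, 2.92 and 2.80 to 4.95, 4.64 and 4.89 (3.9-fold, log2 change 1.96, SE 0.12, adjusted p = 3.05e-05). tnnt3b, another fast troponin T, went from 4.16, 3.75 and 4.03 to 6.48, 6.42 and 6.15 (5.16-fold). The fast myosin light chain mylpfa, at 6.50, 6.39 and 6.48 at 24 hpf, rose 1.69-fold to 7.08, 7.31 and 7.25. Genes that supply the fibre with calcium and energy moved the same way, 14 of 21 rising and 7 not called (median 1.1). atp2a1l rose from -2.75, -3.08 and -2.78 to 2.46, 2.15 and 2.80 (40.4-fold, log2 change 5.34, SE 0.19, adjusted p = 2.84e-06). slc25a4, which exchanges ADP for ATP across the inner mitochondrial membrane, rose 14.4-fold from 0.95, 0.49 and 0.83 to 4.35, 4.55 and 4.92. The calcium buffer parvalbumin, pvalb2, rose 3.88-fold, and the muscle creatine kinase ckma rose 2.88-fold. In none of these genes did the times overlap, nor did they in 48.4% of all genes tested. The genes tnnt3b, atp2a1l and slc25a4 were named by a rule that required no overlap.

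Of 12 slow muscle genes 2 rose and 2 fell (33.3% called, beside 30.6% of all genes). tnnt2d, a troponin T, rose 6.26-fold from 1.03, 1.05 and 1.14 to 3.75, 3.55 and 3.86, while tnnt2c, another, fell 3.27-fold from 3.56, 3.35 and 3.39 to 1.40, 1.32 and 2.44. The slow fibre determinant prdm1a fell 2.08-fold, from 1.90, 1.61 and 1.88 to 0.78, 0.35 and 1.08. Among the 15 myogenic regulators 2 rose and 5 fell. myog, which drives myoblasts into terminal differentiation, fell 4.11-fold from 2.21, 2.23 and 2.05 to 0.25, 0.02 and 0.12 (log2 change -2.04, SE 0.12, adjusted p = 2.85e-05). myod1 (1.97, 2.1 and 1.66 against 1.74, 0.65 and 1.48) and myf5 (0.18, -0.12 and 0.05 against -0.21, -0.55 and -0.49), which commit cells to the muscle lineage, did not pass the test (adjusted p = 0.103 and 0.0505). They did so without replicate 1 at 36 hpf (adjusted p = 0.0341 and 0.0279). In both genes that replicate was the highest of its group, so the calls without it describe that array and test nothing.

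Of 17 cardiac genes 3 rose and 4 fell, and their median of -0.08 became 0.16 with scaling to control spots. nppa, the atrial natriuretic peptide of the chamber myocardium, rose 7.11-fold from -6.28, -5.65 and -5.78 to -3.45, -2.72 and -3.05 (log2 change 2.83, SE 0.28, adjusted p = 0.000264). tbx2b, a repressor of chamber genes in the atrioventricular canal, rose 2.26-fold from 2.0, 2.2 and 1.91 to 3.30, 3.38 and 2.94. The early heart and endoderm factor gata5 fell 3.26-fold from 0.36, 0.35 and 0.45 to -1.35, -1.39 and -1.21, and has2, which makes the hyaluronan of the cardiac jelly, fell 2.59-fold. The cardiac myosin light chain myl7 stood at 1.53, 1.37 and 1.58 and then at 1.46, 1.12 and 1.76 (adjusted p = 0.869), with overlap of the times. The ventricular myosin myh7 was not called either (-1.14, -1.16 and -1.07 against -1.29, -0.33 and -0.68). The other probe for gata5 gave a log2 change of -0.65 (adjusted p = 0.088).

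Genes of the segmentation clock and the presomitic mesoderm fell. Somites bud off from this tissue under oscillating Hairy/Enhancer of split repressors and gradients of Fgf, Wnt and retinoic acid, and the tissue is used up as the tail finishes. Of 25 genes tested, 14 fell and 4 rose (median -0.68), and 9 fell when any one of the 24 hpf arrays was left out. The clock repressor her7 had -2.54, -2.79 and -2.62 at 24 hpf and -4.0, -5.90 and -5.31 at 36 hpf (5.35-fold, log2 change -2.42, SE 0.43, adjusted p = 0.00411). ripply2, which sets the somite boundary, fell 9.27-fold from -2.37, -2.61 and -2.68 to -5.76, -6.60 and -4.94 (log2 change -3.21, adjusted p = 0.000691). tbx16, a T-box factor of mesodermal progenitors, fell 3.51-fold from -1.30, -1.24 and -1.28 to -3.71, -2.62 and -2.91. At 36 hpf these genes were lower on every array, as the rule that named ripply2 and tbx16 required. her7 was well above background on 2 of 3 arrays, and the other probe for tbx16 gave a log2 change of -1.11 (adjusted p = 0.0588). Of the 20 list members with probes above background on all arrays, 10 fell and 4 rose. The notochord and tail bud factor tbxta stood at 0.95, 1.92 and 1.02 and then at 0.36, 0.75 and 0.78 (adjusted p = 0.0784). gdf11, a ligand of the transforming growth factor beta family that acts in the tail, rose 3.08-fold from -0.26, -0.14 and -0.20 to 1.09, 1.93 and 1.26. The caudal factor cdx1a rose 2.17-fold by the probe used, but its other probe fell (log2 change -2.61, adjusted p = 0.000396), so its direction is uncertain.

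Of the posterior hox genes 25% were called, and of the anterior and central ones 19.2%, beside 30.6% of all genes. Of 20 posterior hox genes 1 rose and 4 fell, and of 26 anterior and central ones 3 rose and 2 fell, against 14.3% and 16.3% of all genes. hoxb1a, which patterns a segment of the hindbrain, fell 2.56-fold from -2.32, -1.93 and -2.12 to -3.61, -3.19 and -3.64 (adjusted p = 0.00201). In the Fgf, Wnt, Bmp, hedgehog and Nodal pathways, 3 of 65 genes rose and 11 fell (21.5% called, beside 30.6% of all genes). Their median of -0.11 became 0.13 with scaling to control spots. The Nodal inhibitors of left-right patterning both fell, and both were named as the largest falls of the list. lft2 fell 7.51-fold from -0.56, -0.37 and -0.65 to -4.10, -3.30 and -2.91 (log2 change -2.91, SE 0.29, adjusted p = 0.000278), and lft1 fell 4.58-fold from -1.20, -1.35 and -1.29 to -3.40, -4.29 and -2.73. smad7, an inhibitory Smad induced by the pathway it blocks, rose 2.85-fold from 0.40, 0.35 and 0.33 to 1.95, 1.94 and 1.71. Of 21 genes of retinoic acid metabolism and response 3 rose and 8 fell, with 3 falling without replicate 1 of 24 hpf, 4 without replicate 3 of 24 hpf and 5 without replicate 3 of 36 hpf. The median of -0.14 became 0.09 with scaling to control spots. cyp26a1, which degrades retinoic acid, fell 1.98-fold from 1.71, 1.71 and 1.89 to 1.25, 0.53 and 0.57. The binding protein crabp1b rose 2.54-fold from -0.09, -0.19 and -0.14 to 1.26, 1.13 and 1.23. The sonic hedgehog gene shha had overlapping times, at 2.87, 3.31 and 2.91 and then 3.05, 2.78 and 2.92 (adjusted p = 0.583).

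**Figure D4:**
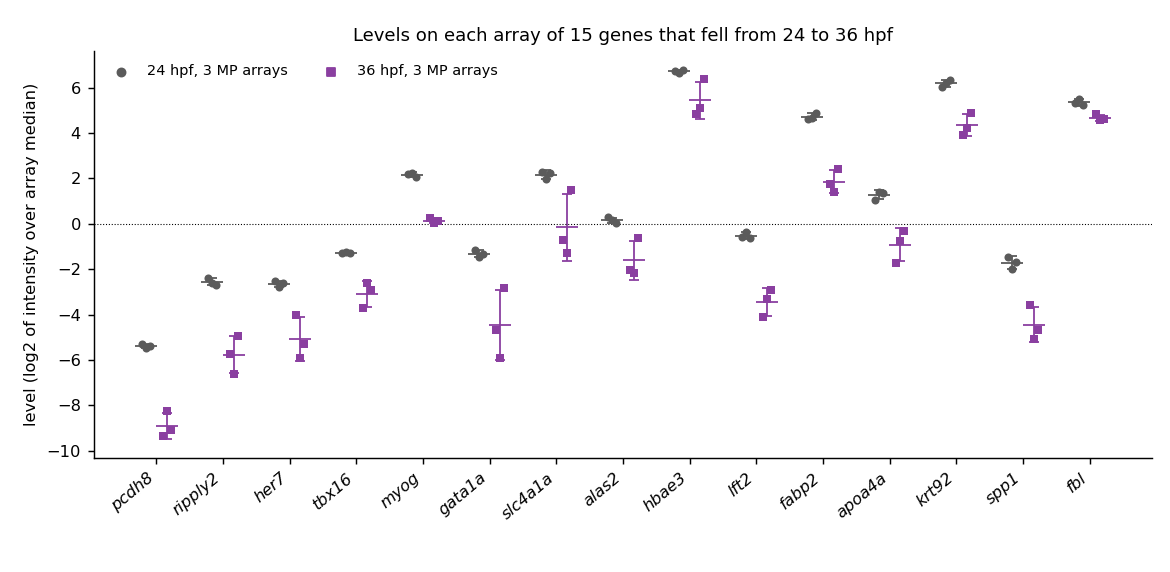
Log2 level on each MP array at 24 and 36 hpf (y axis) for 15 genes of the segmental mesoderm, muscle differentiation, blood, Nodal signalling, yolk and gut, skin, bone matrix and ribosome biogenesis; dots are arrays, and the bar and error bar are the mean and SD of 3 arrays. The 15 genes were picked as fallen, and the times do not overlap in any of them, as in 48.4% of all genes tested. Replicate 3 at 36 hpf is the highest of its group in gata1a, slc4a1a, alas2 and hbae3.

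Genes of differentiated neurons rose as a group. Of 35 neuronal and synaptic genes tested, 26 rose and 9 were not called (median 0.94). neflb, a light neurofilament subunit of axons, rose 9.58-fold from -3.66, -3.69 and -3.44 to -0.28, -0.17 and -0.55 (log2 change 3.26, SE 0.17, adjusted p = 1.4e-05). snap25a, a protein of synaptic vesicle fusion, rose 2.02-fold from 1.65, 1.69 and 1.51 to 2.54, 2.87 and 2.48. The postmitotic marker elavl3, an RNA-binding protein, stood at 0.68, 0.48 and 0.51 and then at 0.74, 1.34 and 0.30, with overlap (adjusted p = 0.48). Genes that make or carry transmitters rose in 12 of 25 cases and fell in 2. For GABA, the synthetic enzyme gad1b rose 3.08-fold by the probe used, from -1.19, -1.24 and -1.21 to 0.50, 0.37 and 0.36 (log2 changes of 0.53, 0.68 and 0.25 by its other probes, of which that of 0.68 was called), and the transporters slc6a1a and slc6a1b rose 6.34-fold and 3.76-fold. For glutamate, the vesicular transporter slc17a6b rose 2.92-fold from -4.24, -4.41 and -4.18 to -3.03, -2.42 and -2.76, with 1 of its other 2 probes called. The 2 members that fell were the glutamine synthetases glula (1.98-fold) and glulb (1.61-fold), enzymes that clear ammonia and recycle glutamate in glia. Tyrosine hydroxylase, th, the first enzyme of catecholamine synthesis, stood at -3.80, -4.24 and -3.67 and then at -3.82, -3.69 and -3.53 (adjusted p = 0.477). Genes of both the inhibitory and the excitatory transmitter thus rose.

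Progenitor and proneural genes were mixed, 13 of 36 rising and 4 falling. neurod1, which acts in newly born neurons, rose 1.91-fold from 1.16, 1.52 and 1.16 to 2.24, 2.33 and 2.07, and insm1a, a zinc finger factor of neuronal and endocrine differentiation, rose 2.52-fold. her9, a repressor that keeps progenitors from differentiating, fell 1.75-fold from 5.13, 5.14 and 5.11 to 4.34, 4.33 and 4.28 (adjusted p = 0.000786). The proneural genes ascl1a (2.93, 2.88 and 2.98 against 3.40, 3.31 and 2.95) and neurog1 (2.19, 1.90 and 2.12 against 2.59, 2.37 and 1.78) were not called. In glia, the myelin proteolipid gene plp1b rose 3.13-fold from -5.11, -5.16 and -5.38 to -3.38, -3.18 and -4.14. egr2b, which marks hindbrain segments before it acts in myelinating Schwann cells, fell 2.42-fold from -0.30, -0.18 and -0.01 to -2.0, -1.40 and -0.92.

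Of 20 genes of the hypothalamus and pituitary 10 rose and 4 fell, and of the 14 with probes above background on all arrays 9 rose and 1 fell. The corticotropin-releasing hormone gene crhb, at the top of the stress axis, rose 4.1-fold from -6.37, -5.91 and -5.82 to -3.42, -4.29 and -4.29 (log2 change 2.04, SE 0.31, adjusted p = 0.00214). The appetite peptide gene cart2 rose 4.89-fold from -5.91, -6.11 and -5.63 to -3.71, -3.61 and -3.46. The thyrotropin-releasing hormone gene trh moved the other way, falling 2.39-fold from -0.42, -0.55 and -0.37 to -2.14, -1.66 and -1.32. The calls of 3 pituitary hormone genes were lost when single arrays were left out. pomca, the precursor of corticotropin, rose 1.76-fold from -4.53, -4.18 and -4.57 to -3.45, -3.37 and -4.01 (adjusted p = 0.0347, and 0.129 without replicate 3 of 24 hpf, with loss also without replicate 1 of 24 hpf and replicates 1 and 2 of 36 hpf). prl, prolactin, rose 2.6-fold (adjusted p = 0.0198, and 0.0746 without replicate 2 of 24 hpf, with loss also without replicate 1 of 24 hpf and replicate 3 of 36 hpf). gh1, growth hormone, was called as fallen (adjusted p = 0.0154) but was above background on 1 of 3 arrays at 36 hpf, and its call was lost without replicate 2 or 3 of 24 hpf.

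Erythroid genes fell, with hbba2 an exception. The primitive red cells of the embryo enter circulation around this time, and their transcripts are dominated by globins. Of 31 erythroid genes tested, 23 fell and 1 rose (median -1.25), and the times did not overlap in 28 of them, against 48.4% of all genes. gata1a, the transcription factor that directs the lineage, fell 8.9-fold from -1.16, -1.46 and -1.34 to -4.70, -5.90 and -2.83 (log2 change -3.15, SE 0.63, adjusted p = 0.00709). slc4a1a, the anion exchanger of the red cell membrane, fell 5.02-fold from 2.3, 1.96 and 2.25 to -0.70, -1.28 and 1.5 (adjusted p = 0.0187). alas2, the first enzyme of haem synthesis in red cells, fell 3.41-fold from 0.28, 0.15 and 0.06 to -2.03, -2.19 and -0.61. In all of these genes replicate 3 at 36 hpf was the least reduced, and the median of the list relative to 24 hpf was -1.31, -1.46 and -0.76 on the 36 hpf arrays. The haemoglobin alpha gene hbae3 fell 2.43-fold from 6.75, 6.65 and 6.76 to 4.83, 5.11 and 6.37 (adjusted p = 0.0221). The calls for slc4a1a were lost without replicate 2 or 3 of 24 hpf (adjusted p = 0.0564 and 0.0526), and that for hbae3 without any one of the 24 hpf arrays or replicate 2 of 36 hpf (adjusted p 0.0550 to 0.0666). The member that rose was hbba2, another globin gene, 5.83-fold from 3.42, 2.29 and 3.33 to 5.02, 5.95 and 5.71 (log2 change 2.54, SE 0.33, adjusted p = 0.000989). Globin genes have near-identical copies, so the gene from which a probe's signal comes is uncertain.

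Among other blood and vessel genes, 46.2% of the myeloid list were called, beside 30.6% of all genes. Of 13 myeloid genes 4 rose and 2 fell. mpx, the myeloperoxidase of neutrophil granules, rose 4.14-fold from -4.66, -4.20 and -4.35 to -1.97, -2.50 and -2.60 (adjusted p = 0.000608), and the leukocyte actin regulator coro1a rose 1.98-fold. cebpa, a factor of the myeloid and liver lineages, fell 1.92-fold from 0.68, 0.76 and 1.06 to -0.09, -0.12 and -0.10 by the probe used, but its other probe was not called (log2 change -0.0892, adjusted p = 0.889). Of 19 endothelial genes 1 rose and 2 fell. The one that rose was the water channel aqp1a.1 (1.94-fold), and flt1, a receptor for vascular endothelial growth factor, fell 3.54-fold from -4.58, -4.43 and -4.25 to -5.93, -7.09 and -5.71, of which 2 were well above background. The receptor kdrl, which marks vessels, was not called (-6.06, -6.93 and -5.97 against -6.17, -5.64 and -5.70). In total 3 of the 19 endothelial genes were called, beside 30.6% of all genes.

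**Figure D5:**
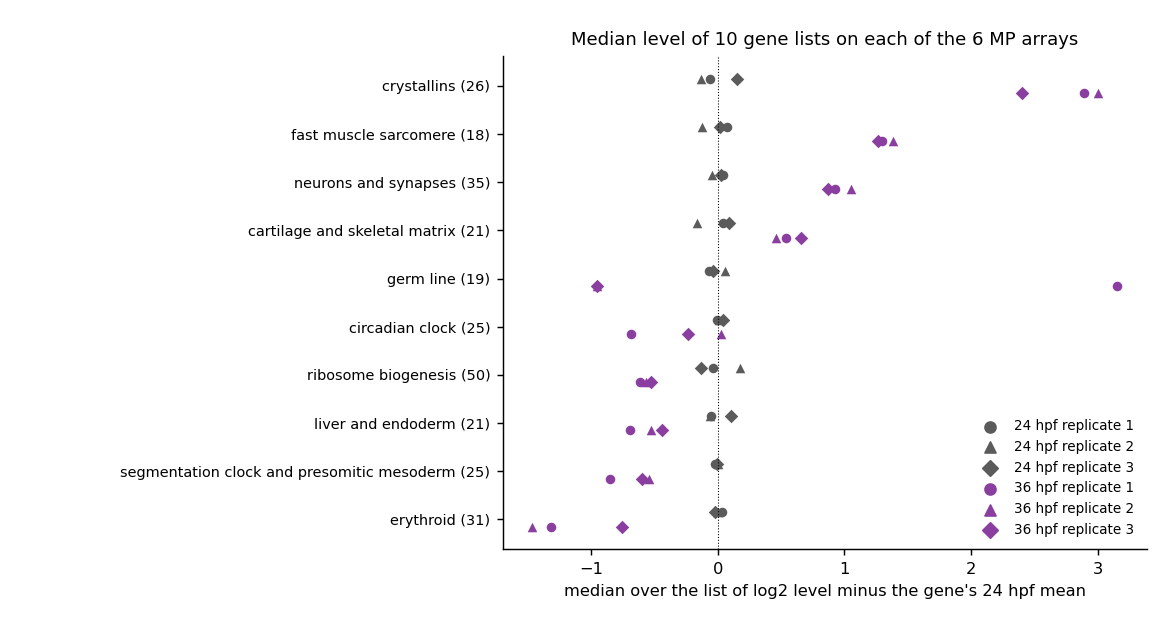
Median log2 level of 10 gene lists (rows) on each MP array, relative to the mean at 24 hpf (x axis), with 1 point per array. In the germ line list replicate 1 at 36 hpf lies at 3.15 and the other arrays of that time at -0.95, while in the erythroid list replicate 3 at 36 hpf lies at -0.76 and the others at -1.31 and -1.46. Of the 19 germ line genes, 13 were among the 86 picked as high on replicate 1 at 36 hpf.

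Among genes of yolk, gut and liver more fell than rose, although with scaling to control spots 2 rose and 1 fell in the yolk and plasma list, and 3 fell in the liver and endoderm list. The yolk syncytial layer packages yolk lipid into lipoproteins before the liver and intestine take over. Of 19 genes for plasma and lipoproteins 7 fell and 2 rose (median -0.58). apoa4a, an apolipoprotein of the yolk layer and later the intestine, fell 4.6-fold from 1.05, 1.42 and 1.37 to -1.71, -0.75 and -0.31 (log2 change -2.20, SE 0.31, adjusted p = 0.00159), and apobb.1, the scaffold of lipoprotein particles, fell 2.77-fold. apoea, an apolipoprotein E, rose 4.75-fold from 0.23, 0.47 and 0.39 to 2.52, 2.66 and 2.65 (adjusted p = 1.39e-05). These apolipoproteins were named as the largest rises and falls of the list, so their opposite directions follow from the choice. Of 21 liver and endoderm genes 10 fell and 1 rose, and 5 fell without replicate 3 of 24 hpf. fabp2 fell 7.27-fold from 4.61, 4.64 and 4.89 to 1.73, 1.41 and 2.42 (log2 change -2.86, SE 0.23, adjusted p = 0.00011). sox32, which specifies endoderm in the gastrula, fell (adjusted p = 0.000999) to levels above background on 1 of 3 arrays. The one that rose was onecut1, a factor of liver and biliary development, 2.07-fold from 3.31, 3.29 and 3.31 to 4.37, 4.42 and 4.27.

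In the pancreas 7 of 25 genes rose and 5 fell. Hormone genes of the islet rose, ins, insulin, 1.91-fold by the probe used, from -0.83, -1.16 and -0.89 to 0.00, -0.29 and 0.20, and gcga, glucagon, 2.51-fold from -4.59, -4.13 and -4.17 to -3.08, -3.06 and -2.76. The other probe for ins gave a log2 change of -0.19 (adjusted p = 0.701), so the rise of ins rests on 1 probe. The prohormone convertase pcsk1 fell from -5.25, -5.36 and -5.36 to -7.10, -7.24 and -6.50, well above background on 1 of these 3 arrays (adjusted p = 0.00387). In the exocrine gland, trypsin, prss1, was not called (-2.65, -2.61 and -2.58 against -1.18, -2.20 and -2.61). Of 18 genes of the pronephros and the interrenal, the steroid-producing tissue of fish, 3 rose and 2 fell (27.8% called, beside 30.6% of all genes). star, which carries cholesterol to the first enzyme of steroid synthesis, rose 4.59-fold from -3.90, -4.43 and -3.80 to -1.69, -2.04 and -1.80 (log2 change 2.2, SE 0.22, adjusted p = 0.00031). nr5a1b, a nuclear receptor that controls steroidogenic genes, rose 2.39-fold from -6.62, -6.57 and -6.65 to -5.10, -5.61 and -5.36. cyp11a1.1, a gene for the side-chain cleavage enzyme that is also supplied by the mother, fell 4.76-fold from -2.37, -2.82 and -1.50 to -3.31, -5.29 and -4.85. The carrier and the regulator of steroid synthesis thus rose while the cleavage enzyme fell, but they were named as the largest rises and falls of the list.

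In the skin, keratins changed in both directions, those given here being named as the largest rises and falls of the list. Of 25 epidermal genes 6 rose and 8 fell, the falls numbering 2 to 4 when an array of 24 hpf was left out, and the median of -0.21 became 0.02 with scaling to control spots. krt1-19e rose 5.28-fold from 3.32, 3.13 and 3.29 to 5.65, 5.84 and 5.45 (log2 change 2.4, SE 0.13, adjusted p = 1.6e-05), and krt91 rose 5.68-fold from 2.14, 1.80 and 2.24 to 4.71, 4.32 and 4.67. krt92, by contrast, fell 3.6-fold from 6.02, 6.22 and 6.33 to 3.93, 4.23 and 4.88 (log2 change -1.85, SE 0.22, adjusted p = 0.000762). The epithelial cadherin cdh1 fell 1.85-fold. Of 17 ionocyte genes 2 rose and 5 fell. foxi3b, which specifies ionocytes, fell 1.89-fold from -2.96, -2.62 and -2.76 to -3.67, -3.84 and -3.58, and ca2, a carbonic anhydrase, rose 1.63-fold. In the hatching gland 1 of 9 genes rose and 3 fell, and the hatching enzyme he1.2 was not called (2.37, 2.08 and 2.92 against 2.38, 2.89 and 3.58).

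Melanophore genes rose in 7 of 17 cases and fell in 1. The melanin synthesis genes tyrp1b and dct rose 2.96-fold and 2.06-fold, tyrp1b from 3.55, 3.45 and 3.66 to 5.09, 5.07 and 5.18 (log2 change 1.56, SE 0.11, adjusted p = 5.22e-05). pmela, the fibre protein of the melanosome, rose 2-fold, and mc1r, the melanocortin receptor, 2.49-fold. tyr, the tyrosinase that starts melanin synthesis, was not called (-3.17, -3.59 and -3.13 against -3.38, -3.13 and -3.08, adjusted p = 0.73). In the genes of xanthophores and iridophores, the yellow and the reflecting pigment cells, 2 of 16 rose and 6 fell. gch2, which opens the pteridine pathway of xanthophores, rose 1.95-fold from 3.52, 2.85 and 3.33 to 4.33, 3.76 and 4.49, whereas pts, a later enzyme of that pathway, fell 2.21-fold. gart, of purine synthesis, fell 2.29-fold from 5.03, 5.28 and 5.17 to 3.74, 4.13 and 4.02. Of 20 neural crest genes 4 rose and 6 fell. foxd3, a factor of premigratory crest, fell 2.19-fold from 1.1, 0.70 and 0.89 to 0.15, -0.58 and -0.28 by the probe used, while its other probe was not called (log2 change -0.0782, adjusted p = 0.813), and barx1, of crest in the pharyngeal arches, rose 2.31-fold from -0.85, -0.15 and -0.63 to 0.72, 0.98 and 0.28 (other probe 0.45, adjusted p = 0.156). sox10, a factor of crest and its derivatives, had overlapping times (1.74, 1.52 and 1.64 against 1.57, 1.28 and 1.53).

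Of 21 cartilage and skeletal matrix genes 11 rose and 4 fell. The collagen gene col1a2 rose 1.98-fold from 5.19, 5.58 and 5.42 to 6.2, 6.58 and 6.36, by the brightest of its 3 probes, the others giving log2 changes of 0.57 and -0.11. The small leucine-rich proteins chad and epyc, which organise collagen in cartilage, rose 4.86-fold and 3.13-fold, chad from -3.30, -3.41 and -3.32 to -0.61, -1.49 and -1.09 (adjusted p = 0.000306). Another small leucine-rich proteoglycan, bgna, fell 3.04-fold, and spp1, osteopontin, fell 6.65-fold from -1.45, -2.0 and -1.69 to -3.57, -5.09 and -4.67 (log2 change -2.73, SE 0.37, adjusted p = 0.00119). In the same protein family chad and epyc thus rose while bgna fell, but they were named as the largest rises and falls of the list. In the fin fold 3 of 14 genes rose and 2 fell (35.7% called, beside 30.6% of all genes). Among them and3, an actinodin of the first fin fibres, rose 16.3-fold from -2.39, -3.73 and -2.43 to 1.01, 0.36 and 2.16 (log2 change 4.03, SE 0.48, adjusted p = 0.00075). In the notochord 2 of 17 rose and 2 fell (23.5% called). The gene noto, which sets notochord fate, fell 3.18-fold from -1.63, -1.55 and -1.64 to -3.25, -3.99 and -2.58. In the ear 2 of 16 rose and 4 fell (37.5% called). tectb, of the tectorial and otolithic membranes, rose 5.75-fold from -5.10, -5.76 and -4.99 to -2.42, -2.71 and -3.16, while oc90, the main otolith matrix protein at early stages, fell 2.19-fold from 2.76, 3.16 and 2.85 to 1.54, 1.70 and 2.13, and the otic competence factor foxi1 fell 2.24-fold.

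The machinery that builds ribosomes fell by small amounts in many genes. Of 50 ribosome biogenesis genes 35 fell and 1 rose (median -0.52), the falls numbering 22 without replicate 1 of 24 hpf. With scaling to control spots the median was -0.29, and no member was called by limma (0 fell and 1 rose at an unadjusted p under 0.05). fbl, the methyltransferase fibrillarin of the nucleolus, fell 1.59-fold from 5.31, 5.51 and 5.22 to 4.82, 4.57 and 4.64 (log2 change -0.67, SE 0.13, adjusted p = 0.00543). noc2l fell 2.3-fold from 0.77, 1.39 and 0.70 to -0.26, -0.06 and -0.42, and nhp2, of the small nucleolar particles that guide pseudouridylation, fell 2.13-fold. nop56, a core protein of the box C/D particles, was not called (5.36, 5.93 and 5.39 against 4.81, 5.88 and 5.05). The ribosomal proteins themselves did not move as a group, 2 of 74 rising and 4 falling (median 0.05), and rps6 was not called (7.04, 7.39 and 7.24 against 6.86, 7.29 and 7.03). Of 52 DNA replication and cell cycle genes 14 fell and 2 rose (30.8% called, beside 30.6% of all genes). The falls numbered 3, 5 and 5 without replicates 1, 2 and 3 of 24 hpf, and the median of -0.21 became 0.02 with scaling to control spots. mcm3, a subunit of the replicative helicase, fell 1.55-fold from 4.11, 4.07 and 4.0 to 3.57, 3.19 and 3.51 (other probe -0.34, adjusted p = 0.367), and the cell cycle inhibitor cdkn1bb rose 2.49-fold from 1.81, 1.85 and 2.03 to 3.13, 3.28 and 3.21 (adjusted p = 0.000144), with 1 of its other 2 probes called. Of 52 genes of the respiratory chain 7 rose and 1 fell (median 0.13), and of 34 proteasome genes 2 rose and 4 fell. Of these lists 15.4% and 17.6% were called, below the 30.6% of all genes.

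The germ line list depended on the array that stood apart. Of 19 genes tested 1 rose and 3 fell (21.1% called, beside 30.6% of all genes), against 1 and 14 without replicate 1 of 36 hpf. Of the 19, 13 were among the 86 genes picked as high on that replicate, the egg-coat gene zp3 and the oocyte histone h1m included. The counts without it thus depend on that choice and test nothing. nanos3, an RNA-binding repressor of primordial germ cells, fell 3.28-fold from -1.10, -0.44 and -0.87 to -2.31, -3.32 and -1.91 (adjusted p = 0.00723), with replicate 1 inside the range of its group. The germ cell helicase ddx4 fell 2.56-fold from -3.18, -2.73 and -3.22 to -4.13, -5.16 and -3.91 (adjusted p = 0.0167, and 0.0674 without replicate 2 of 24 hpf), and its other probe was not called (log2 change -0.38, adjusted p = 0.325).

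In the lists of the clock, of stress and of glucocorticoid action 28%, 31.4% and 42.1% of genes were called, beside 30.6% of all genes. Of 25 circadian genes 1 rose and 6 fell. The clock repressor cry1b rose 1.99-fold from -2.89, -3.31 and -2.93 to -2.17, -2.21 and -1.75, and npas2, a partner in the activating complex, fell by at least 1.87-fold, with no 36 hpf array well above background. per1b ranged widely at 36 hpf (-2.14, 0.94 and 1.72, against -0.59, -0.99 and -0.31 at 24 hpf) and was not called, although it was called as risen without replicate 1 of 36 hpf (log2 change 1.96, adjusted p = 0.00195). Replicate 1 was the array that differed, so the call without it describes that array and tests nothing. Of 35 stress and p53 genes 6 rose and 5 fell. The small heat shock protein hspb1 fell 3.25-fold from 3.27, 2.83 and 3.09 to 1.5, 0.52 and 2.07. Of 19 genes of the glucocorticoid pathway 4 rose and 4 fell. The receptor gene nr3c1 stood at -0.51, -0.57 and -0.38 and then at -0.29, -0.21 and -0.20 and was not called (adjusted p = 0.164). hsd11b2, which inactivates cortisol, rose 2.68-fold from -2.89, -2.31 and -2.66 to -0.97, -0.82 and -1.80 (adjusted p = 0.00632), and pck2, an enzyme of gluconeogenesis, fell 2.47-fold from 3.98, 3.70 and 4.33 to 2.74, 2.28 and 3.08.

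The change with time was set against that in the 6 MO arrays by an interaction term. Of 10391 genes tested, 164 (1.58%) changed differently, 97 of them with the more positive change in MP and 67 with the more negative. In 124 of the 164 the mean changes had opposite signs. This counts signs alone, so that small MO changes such as -0.03 for atp2a1l are included. The 164 were picked as differing, and the share over all genes was not computed. The number rested on single arrays. It was 71, 61 and 69 without replicates 1, 2 and 3 of MP at 24 hpf, 78 without replicate 1 of MP at 36 hpf, 74, 62 and 106 without replicates 1, 2 and 3 of MO at 24 hpf, and 1591 without replicate 2 of MO at 36 hpf, whose median intensity of 35.5 was the lowest of the 12 arrays. Of the 215 genes of the report that were examined, 19 changed differently, beside 1.58% of all genes. Of the 19, the change in MP was more positive in 13 and more negative in 6. Many of the genes were named for a large change in MP, which is part of the difference. The count and its directions thus depend on that choice and test nothing. tnni2b.2 changed by 7.0 in MP and by -0.68 in MO (difference 7.68, SE 0.60, adjusted p = 0.00027), the calcium pump gene atp2a1l by 5.34 and -0.03 (difference 5.37, SE 0.79, adjusted p = 0.00776), and the Nodal inhibitor lft2 by -2.91 and 0.43 (difference -3.34, adjusted p = 0.0137). For the fast troponin T gene tnnt3a the changes were 1.96 in MP and 2.03 in MO, and the difference of -0.06 (SE 0.47) did not pass this test (adjusted p = 0.968).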

How the data were processed

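RNA of pooled embryos was labelled with Cy3 and hybridised to Agilent zebrafish arrays. The intensities deposited by the authors are those of Agilent Feature Extraction 10.5.1.1, which subtracted background and spatial trends within each array, and arrays were not scaled to each other. A table of processed intensities from the authors was used as an alternative, and, per their methods, it was floored at 0.05 and scaled per chip to positive control genes above 50 in all samples, although the lowest value in the table was 0.01.

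From the scanner intensities, values under 0.05 were raised to 0.05, outlier spots were left out, arrays were scaled to their own median of the 19229 probes above 50 on all 12, and log2 values were taken, with repeated spots as their mean. By accession, 16770 of 43603 probes had a symbol, giving 15770 probes of 10914 named genes, and for 3906 genes with several probes the brightest on average was used. A test was made where the probe exceeded background well on every array of 1 or both times, with 2 or more values in each. Times were compared with limma 3.58.1 (lmFit, eBayes with a trend) in R 4.3.3, with Benjamini-Hochberg adjustment over all genes tested and a threshold of 0.05, and the interaction in 1 fit of all 12 arrays. The fits were tested on simulated data. Fold bounds set the mean of the bright group against the lowest signal among probes well above background on each array of the dim group. Arrays give no read depth, and their number limits the precision.

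Groups followed the sample labels. The methods of the study compared MP with MO within a time, by a t-test, and did not compare the times. Genes were named by rule, as the 10 largest rises and falls called without overlap of the times, 120 landmark genes, and up to 2 in each direction from each of 45 lists, which held 1406 distinct names, 1057 of them tested. The landmark genes comprised 101 tested, of which 27 rose and 25 fell. The members and lists were chosen with earlier results of these data known, and zp3, h1m, nanog, zar1, kpna7 and cyp1a after their values were seen. Arrays were not treated as paired across times by replicate number. The deviations of same-numbered arrays correlated at -0.02, -0.01 and 0.04, but 3 arrays per time are too few to show whether they were paired. Alternatives were other scalings (75th percentile, positive control spots, probes above 50 on the MP arrays, quantile), normexp with an offset of 50, a floor after scaling, outlier spots kept, other filters and choices of probe, all probes, limma without a trend, the methods' t-test, a 2-fold minimum, a single fit of all arrays, replicate and slide as blocks, the table of the authors, and leaving out single arrays. The data.table package (version 1.17.8) was used, and figures were drawn with Python 3.11.15, numpy 2.4.6 and matplotlib 3.10.9.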

Additional observations from a re-analysis of the deposited data

Results flagged for a closer look

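For 164 of 10391 genes the change from 24 to 36 hpf differed between MP and MO embryos by the interaction term of the fit of all 12 arrays. Among genes named in the report, the change was the more positive in MP by 7.68 log2 units for tnni2b.2, 6.80 for crygm3, 6.28 for crygmxl1, 5.37 for atp2a1l, 5.03 for lim2.5, 4.38 for opn1lw2, 3.85 for crygm2d11, 3.52 for crygm2b, 3.29 for tectb, 3.23 for arr3a, 3.07 for and3, 1.69 for smad7 and 1.04 for crabp1b. These are single genes of the lens, fast muscle, cones, ear and fin fold, with an inhibitory Smad and a retinoic acid binding protein, and do not stand for their tissues. Other named genes of lens, fast muscle and cones did not pass the interaction test. Their differences were 0.59 for crybb1, 2.44 for mipb, 0.65 for tnnt3b, -0.30 for mylpfa and -0.08 for opn1mw2 (adjusted p = 0.76, 0.257, 0.749, 0.771 and 0.966). crygmxl1, lim2.5 and crygm2d11 were not well above background on any MP array at 24 hpf, so their fitted differences are not measured sizes and have no order among the rest. The MO levels at 36 hpf were -7.5, -7.5 and -7.6 for opn1lw2 and -7.4, -5.2 and -6.9 for crygm3. Those of lim2.5 were -8.1, -7.2 and -7.4. On the MP arrays at 24 hpf, opn1lw2 was well above background on 1. The sizes for opn1lw2 and crygm3 are thus uncertain as well. The change was the more negative in MP, with differences of -3.34 for lft2, -2.59 for rfesd, -2.24 for alas2, -2.10 for tnnt2c, -1.31 for oc90 and -1.15 for gart. In tnni2b.2 the MO arrays stood at -2.88, -4.21 and -4.60 at 24 hpf and at -4.36, -5.01 and -4.36 at 36 hpf, above the MP arrays at the first time and below them at the second. In lft2 they stood at 0.20, -0.81 and -0.37 and at -0.29, 1.04 and -0.44, so that the MO level lay above the MP level at 36 hpf. At 36 hpf crygm2b stood at 2.51, 2.84 and 1.93 on the MP arrays and at -2.67, -3.99 and -2.76 on the MO arrays. For atp2a1l these levels were 2.46, 2.15 and 2.80 and -2.34, -2.20 and -1.92. crygm3, at -1.82, -1.50 and -2.44 on the MP arrays, was lower on the MO arrays as well. The study lists these genes as raised by the knockdown at the later time, the reverse of the direction found here. The reason for this was not tested. Median intensities of the MO arrays at 36 hpf were 105.4, 35.5 and 80.4, lower than 2 of the 3 MP arrays of that time or all of them, and the part of this in the differences was not tested. No test for a single deviating array was made, since groups had 3 arrays.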

How the results depend on the processing

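The number of changed genes, 3153, was 612 with scaling to the positive control spots (496 rose, 81% of calls against 46.9%), 1848 and 1636 by the methods' t-test on log2 and linear values (3858 and 3787 before adjustment), 1066 with a 2-fold minimum (621 rose) and 9088 of 34685 when all probes were tested. It stayed within 1.5 times of 3153 under the other scalings, filters, fits and the authors' table (2921), and the replicate block gave 3137, 2881 of them shared, which moved no count by more than that factor. Leaving out single arrays gave 1787 to 3123. The interaction count of 164 was 57 with control spot scaling, 105 with normexp, 271 with the floor after scaling, 96 with the probe of smallest change, 104 with slide as a random block, 117 with the replicate block, and 61 to 1591 with single arrays left out. The causes were not tested, except that the 2-fold minimum and all probes change which features count.

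Of 215 genes examined, 58 kept their call under every setting run, and 18 changed sign in some setting. With control spot scaling the log2 changes became 0.19 for myl7, 0.0707 for rps6, 0.12 for shha and 0.0628 for sox10, none of them called. With the mean of probes that of cdx1a became -0.74, and with the probe of smallest change those of col1a2, cybb, her8a, hoxb13a, ins and ubtf became -0.11, 0.0759, 0.43, -0.45, -0.19 and -0.33. With single arrays left out, changes ranged from -1.57 to 0.14 for cyp1a, -0.19 to 0.0233 for shha, -0.38 to 3.03 for h1m, -0.96 to 1.38 for nanog, -1.37 to 0.77 for zar1, -1.41 to 1.86 for zp3, -0.0368 to 0.48 for elavl3, -0.0407 to 0.20 for tyr and -0.20 to 0.12 for myl7. Among shorter lists, leaving out single arrays gave 3 to 6 falls for neural crest, 2 to 5 for circadian, 2 to 6 for ionocyte and 7 to 12 for signalling genes, and 4 to 8 rises for pancreas, 4 to 8 for respiratory chain and 2 to 9 for stress genes. Of 1107 changed genes with another tested probe, 509 had another probe called the same way and 29 one called the opposite way. Probes near background limit falls to bounds.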

Other observations

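Some values belonged to single arrays. The dioxin-responsive cytochrome gene cyp1a, chosen after its values were seen, had log2 levels of 5.12, 1.69 and 4.77 at 24 hpf and of 3.12, 3.32 and 3.69 at 36 hpf. Replicate 2 at 24 hpf was the low array, and without it cyp1a was called as fallen (log2 change -1.57, adjusted p = 0.00398). The gene and the array were singled out by these values, so this call tests nothing. The spread between arrays was wider at 36 hpf, with a median SD over genes of 0.231 on the log2 scale against 0.144 at 24 hpf.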
